A study of Mus musculus with 63 samples.

Results

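Heart RNA of AJ mice (8 libraries) was compared with heart RNA of WSB mice (8 libraries), which together are 16 of the 63 heart libraries of a set covering the 8 inbred strains from which Diversity Outbred mice were bred. The columns named AJ and WSB in the deposited count table were taken as the groups, all genes were tested, and each value was also computed without WSB_1, replicate 1 of WSB. The labels name no transgene or other introduced allele in either strain. Every mouse, in these strains and in the other 6, was on the same high-fat, high-sugar diet with 45% fat, so no chow-fed control stands beside either strain. Age and sex are not given in the labels used here, and each library was taken as 1 mouse. The p-values of single genes rest on the spread between libraries within a strain, estimated over all 63 libraries.

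AJ is a classical laboratory strain known for a retrotransposon insertion in the dysferlin gene, which weakens repair of the muscle membrane. WSB is derived from wild-caught mice of the subspecies domesticus and is known for staying lean on fat-rich food. In adult ventricle, stretch and overload are known to raise natriuretic peptides, skeletal-type actin and the stretch-sensitive ankyrin protein of the nucleus, and interferons raise the genes that load peptides onto class I molecules. Heat shock genes answer to the transcription factor HSF1, and genes of the circadian clock cycle over the day in heart muscle as in other tissues.

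Total estimated counts ran from 28407092 to 42949211 in AJ and from 24787743 to 30955103 in WSB. WSB_1 stood apart from all other libraries of both strains. Its log2 CPM (CPM being the counts of a gene scaled to a common library total) correlated at 0.936 to 0.947 with the other 7 WSB libraries, which correlated at 0.982 or more with one another. It was high in short transcripts (median deviation 0.51 log2 units from the other WSB libraries in the shortest of 4 equal length classes) and low in long ones (-0.30 in the longest class), where the other 7 lay between -0.10 and 0.09 in both of these classes. RNA quality values were not analysed here, and the part of this library in a result was not tested beyond the values given without it. Xist, the RNA of the inactive X chromosome, was above 100 CPM in 4 AJ and 4 WSB libraries. These are bulk samples, in which fewer cells of a type and less RNA per cell cannot be told apart.

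The strains differed in a large share of the genes. Of 16425 genes tested, 3320 (20.2%) were higher in AJ and 3529 (21.5%) were lower at an adjusted p below 0.05, in edgeR's quasi-likelihood test with Benjamini-Hochberg adjustment. These 41.7% are the background for each list below. A difference of at least 2-fold was found for 900 genes higher (5.48%) and 814 lower (4.96%) in AJ. All 8 AJ libraries lay above all 8 WSB libraries for 1231 genes (7.49%) and below them for 902 (5.49%). The median log2 fold change over all genes was -0.02 and the median absolute change 0.24, against 0.52 among the genes called. Without WSB_1, 3571 of 16375 genes (21.8%) were higher and 3518 (21.5%) lower, 43.3% in all. All 8 AJ libraries lay above the 7 WSB libraries other than WSB_1 for 1605 genes (9.77%) and below them for 1517 (9.24%). Of the genes called with all libraries, 5895 were called in the same direction without WSB_1, 939 were not called without it and 15 were not tested without it. A further 1194 genes were called only without it. In what follows a gene is written as higher or lower only where its adjusted p was below 0.05, a bracketed value after a gene is its log2 fold change of AJ over WSB, and the levels are CPM scaled by TMM factors, which compare libraries and not genes.

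**Figure D1:**
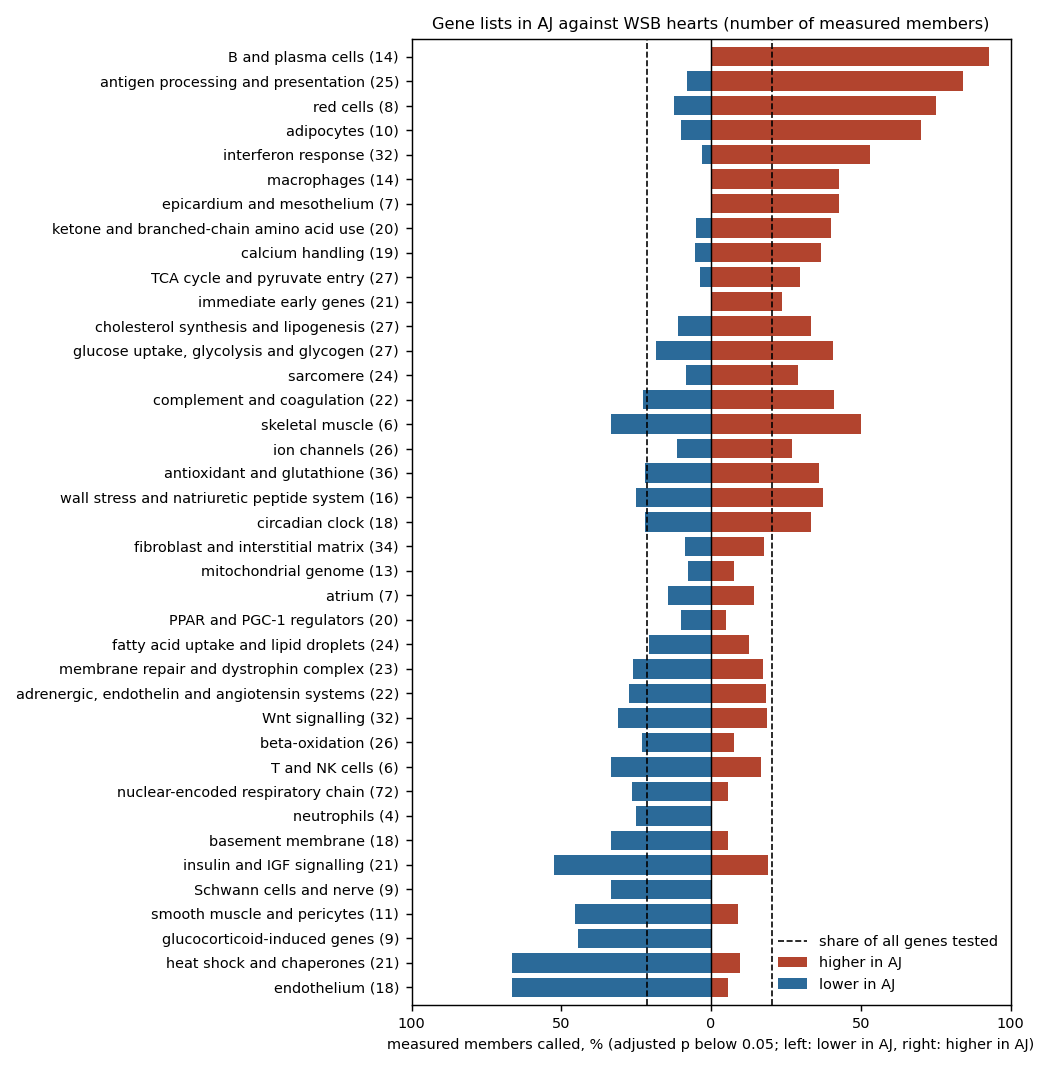
Percentage of measured members of each gene list that were called higher in AJ (right) or lower in AJ (left) at an adjusted p below 0.05, with the number of measured members in brackets and dashed lines at the shares over all genes tested (20.2% higher, 21.5% lower). B cell, antigen presentation, red cell, adipocyte and interferon lists stand at the top, and heat shock and endothelial lists at the bottom.

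The genes furthest apart between the strains without a near-identical copy encode receptors, enzymes and secreted proteins of varied kinds. Those highest in AJ over WSB included Gbp2b (chr3:142594847-142619179), a guanylate-binding protein of the interferon response. It was measured at 8.15 to 48.1 CPM (median 9.37) in AJ and 0 to 0.167 (median 0.0677) in WSB. No WSB library reached the lowest AJ library (log2 fold change 7.52 ± 0.43 (SE), adjusted p = 1.08e-22). Baiap2l1 (chr5:144264526-144358112), which links membrane curvature to actin, was measured at 149 to 189 CPM (median 181) in AJ and 7.61 to 18.1 (median 14.01) in WSB. The groups lay far apart, and every AJ library also exceeded all 47 libraries of the other 6 strains, whose means ran from 7.93 to 21.3 CPM (log2 fold change 3.63 ± 0.15 (SE), adjusted p = 5.29e-29). Its exons overlap genes on the other strand, and the strand setting of the counting is not given in the sources used here.

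Ogdhl, a relative of the E1 subunit of 2-oxoglutarate dehydrogenase, was measured at 67.4 to 81.5 CPM (median 75.7) in AJ and 1.78 to 6.81 (median 3.42) in WSB (log2 fold change 4.29 ± 0.20 (SE), adjusted p = 3.04e-26). Folr2, the folate receptor of resident macrophages, was measured at 5.75 to 8.29 CPM (median 7.19) in AJ and 0.181 to 0.725 (median 0.499) in WSB (log2 fold change 3.90 ± 0.23 (SE), adjusted p = 1.06e-22). In both cases all AJ libraries were above all WSB libraries. Stbd1, which tethers glycogen to membranes, had a log2 fold change of 3.81, and the ubiquitin ligase adaptor Fbxo44 one of 3.75. The neuronal genes Fam19a2 (5.69), Gabra3 (4.35) and Pianp (4.32) were likewise higher in AJ. Pck1, the cytosolic enzyme that starts gluconeogenesis and glyceroneogenesis, was measured at 2.91 to 24.7 CPM (median 14.6) in AJ, 0 to 2.36 (median 0.218) in 7 WSB libraries and 4.07 in WSB_1. WSB_1 overlapped AJ here and the other WSB libraries did not (log2 fold change 3.59 ± 0.76 (SE), adjusted p = 1.11e-04, and without WSB_1 4.30, adjusted p = 4.06e-05). AJ_2, AJ_7 and AJ_8 had the lowest Pck1 values in AJ and WSB_1 and WSB_9 the highest in WSB, as they did for Adipoq, a fat cell gene described below. The part of fat cells in this difference was not tested.

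Among the genes lowest in AJ, Ptprn2, a protein of secretory vesicles, was measured at 0 to 0.216 CPM (median 0.0590) in AJ and 30.3 to 40.7 CPM (median 34.5) in 7 WSB libraries, with 4.32 in WSB_1 (log2 fold change -8.64 ± 0.45 (SE), adjusted p = 1.99e-24). The water channel gene Aqp6 (-7.32), the ectoenzyme gene Bst1 (-5.33) and Edn3, which encodes endothelin 3 (-4.39), were also low in AJ without overlap. Cit, the citron kinase of dividing cells, was measured at 1.58 to 2.55 CPM (median 2.26) in AJ and 13.97 to 34.2 (median 16.8) in WSB. All WSB libraries exceeded the 8 AJ libraries and the 47 of other strains for Cit, Aqp6, Sun3, Fez1 and Cfap69 (log2 fold changes -3.09, -7.32, -3.99, -3.56 and -3.22). Mettl11b, a methyltransferase, stood at -3.42, and Atp2b2, a calcium pump of the plasma membrane, at -3.09.

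Cwc22 (chr2:77881159-77946375), a splicing factor gene, was measured at 10.7 CPM at the lowest, 11.6 at the median and 13.6 at the highest of the 8 AJ libraries, against 634, 705 and 1141 in the 8 WSB libraries. The gap between the groups was wide on the log scale of the plot of single genes (log2 fold change -6.00 ± 0.11 (SE), adjusted p = 2.97e-50), and the other strains' means lay at 9.33 to 16.3 CPM. WSB is known to carry extra copies of a segment that holds this gene, and the reference annotation has near-identical predicted copies, so the copy to which the WSB reads belong is uncertain. Ly6c1, a surface antigen of endothelium and monocytes, was measured at 53.9 to 60.4 CPM (median 58.4) in AJ, while all WSB libraries together held 2 counts. The ratio of AJ to WSB was 6757 with a 95% counting interval of 1870.4 to 55792. Summed with its near-identical neighbours Ly6c2 and Ly6a, the difference was 0.12 ± 0.19 (SE), adjusted p = 0.635. Ly6a alone was lower in AJ at -1.35.

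**Figure D2:**
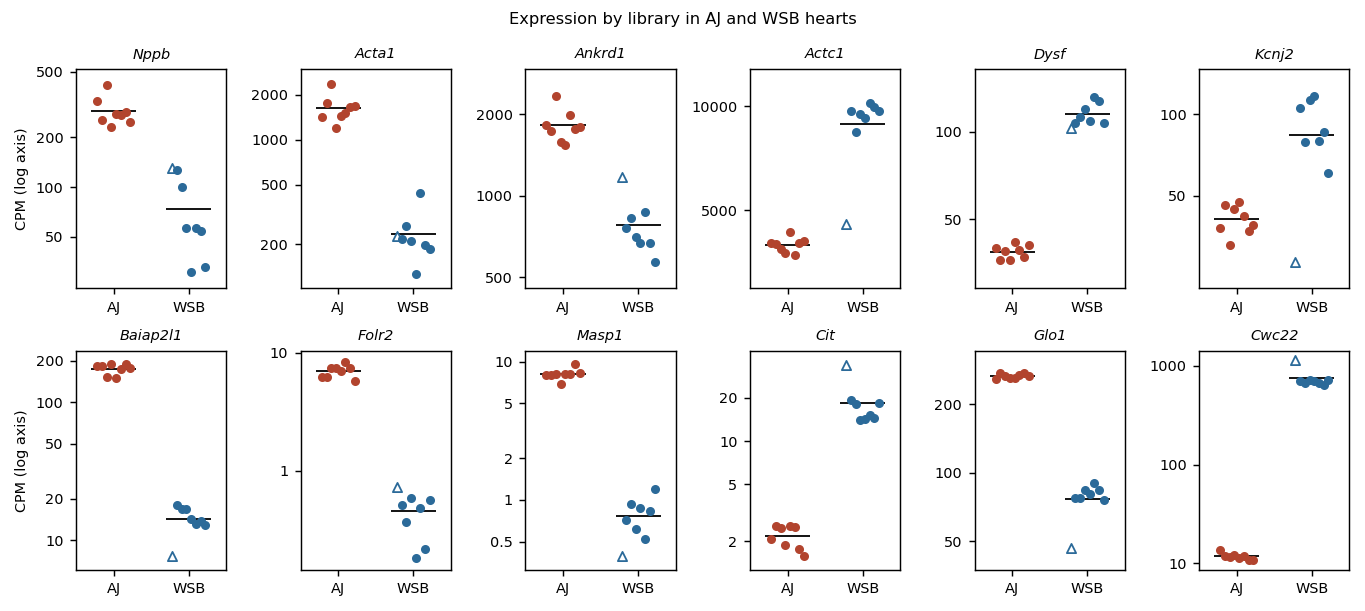
Expression in CPM on a log axis for 12 genes, with 1 point per library (red AJ, blue WSB, open triangle WSB_1) and a line at each mean. For these genes no AJ library overlaps the 7 WSB libraries other than WSB_1, and in Kcnj2 WSB_1 lies below the AJ libraries.

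Several genes that mark load on the ventricular wall were higher in AJ, led by Acta1 and Nppb, while the cardiac actin gene Actc1 and the natriuretic peptide receptor gene Npr1 were lower. Of 16 measured members of the wall stress and natriuretic peptide list, 6 were higher and 4 lower in AJ (62.5% called, against 41.7% of all genes), with a median log2 fold change of 0.38. Nppb (chr4:147985788-147987205), the gene of B-type natriuretic peptide, was measured at 232 CPM at the lowest, 275 at the median and 413 at the highest of the 8 AJ libraries, against 30.5, 56.8 and 131 in the 8 WSB libraries. Every AJ library was above every WSB library and above the 47 libraries of the other strains (log2 fold change 1.97 ± 0.26 (SE), adjusted p = 5.17e-09). The A-type peptide gene Nppa was measured at 494 to 1254 CPM (median 1051) in AJ and 246 to 918 (median 635) in WSB, with overlap between the strains. Nppa is abundant in atrium, where marker genes came to 392 to 899 summed CPM in AJ, 308 to 882 in 7 WSB libraries and 736 in WSB_1, again with overlap. The Nppa difference passed the test (log2 fold change 0.60 ± 0.21 (SE), adjusted p = 0.0181) and was lost without WSB replicate 6 (adjusted p = 0.0532). Ankrd1 (chr19:36111965-36119844), the stretch-sensitive ankyrin repeat gene, was measured at 1532 to 2340.0 CPM (median 1774) in AJ, 569.5 to 875 (median 704) in 7 WSB libraries and 1173 in WSB_1. WSB_1 was the highest WSB library and remained under the lowest AJ library (log2 fold change 1.22 ± 0.17 (SE), adjusted p = 1.32e-08).

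The actin genes did not move alike. Acta1 (chr8:123891767-123894736), the skeletal-type actin that is prominent in the fetal and overloaded heart, was measured at 1193 CPM at the lowest, 1579 at the median and 2362 at the highest of the 8 AJ libraries, against 127, 214 and 441 in the 8 WSB libraries. The groups did not overlap (log2 fold change 2.80 ± 0.26 (SE), adjusted p = 6.24e-14). Actc1 (chr2:114047282-114053548), the actin of adult heart muscle, was measured at 3719 to 4337 CPM (median 4005) in AJ, 8450.1 to 10236 (median 9703) in 7 WSB libraries and 4568 in WSB_1. Here WSB was the high group and WSB_1 its lowest library, still above AJ (log2 fold change -1.17 ± 0.12 (SE), adjusted p = 5.24e-12). Acta2 (chr19:34241090-34255336), the smooth muscle actin, was measured at 311 to 458 CPM (median 386) in AJ and 70.6 to 174 (median 97.8) in WSB, again without overlap and with AJ high (log2 fold change 1.90 ± 0.16 (SE), adjusted p = 8.33e-16). Other smooth muscle genes did not follow it, since Tagln (-0.62), Myh11 (-0.39) and Mylk (-0.50) were lower in AJ. Myh7, the slow myosin heavy chain of the same fetal programme, was measured at 123 to 180.0 CPM (median 156) in AJ and 93.3 to 206 (median 103) in WSB and did not pass the test (adjusted p = 0.513).

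On the receptor and clearance side, Npr1, the receptor for both peptides, was lower in AJ (-0.54, and -0.34 without WSB_1), as was the peptide-degrading neprilysin gene Mme (-0.82, and -0.97 without WSB_1). Npr3, the clearance receptor, was higher at 0.45. Furin, a protease that processes precursors, was lower at -0.52 and Npr2, the receptor of the C-type peptide, at -0.11 (not called without WSB_1). Xirp2, an actin-binding protein of the intercalated disc, was higher at 0.48. Of 24 sarcomere genes, 7 were higher and 2 lower (37.5% called, against 41.7% of all genes, median 0.02). Besides the genes below, the higher members were Tcap (0.61), Mylk3 (0.60), Csrp3 (0.55), Mybpc3 (0.36) and Myl2 (0.25). Myom2, a protein of the M-band, was measured at 1212 to 1815 CPM (median 1479) in AJ, 919 to 1076 (median 994) in 7 WSB libraries and 264 in WSB_1 (log2 fold change 0.75 ± 0.17 (SE), adjusted p = 3.05e-04). Mybphl, a myosin-binding protein of atria and conduction cells, differed by 0.89 with overlap.

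Dysferlin RNA was low in AJ. Dysf (chr6:84008590-84211060), which encodes the membrane repair protein whose gene carries the insertion in this strain, was measured at 36.2 CPM at the lowest, 39.1 at the median and 41.8 at the highest of the 8 AJ libraries, against 103, 111 and 131 in the 8 WSB libraries. All AJ libraries were below all other libraries of the set (log2 fold change -1.57 ± 0.08 (SE), adjusted p = 6.36e-27). The transcript was still measured in every AJ library. Its partners did not share one direction. Trim72, which starts the repair patch, was measured at 201 to 243 CPM (median 209) in AJ, 146 to 183 (median 153) in 7 WSB libraries and 49.7 in WSB_1 (log2 fold change 0.56 ± 0.11 (SE), adjusted p = 4.87e-05). Sgca, a sarcoglycan of the dystrophin complex, was also higher in AJ (0.92, no overlap), while Anxa5, a calcium-dependent membrane-binding protein, was lower (-0.52). Capn3, a muscle protease, was lower at -0.57, and its call was lost without AJ replicate 1, AJ replicate 3 or WSB replicate 7 (adjusted p up to 0.125), and in limma on the variance-stabilised values. Over the list, 4 of 23 genes were higher, 6 lower and 13 did not pass (43.5% called, near the 41.7% of all genes). Without WSB_1, 5 were higher and 9 lower. Utrn, the relative of dystrophin, was among the higher ones (0.29), as was Sntb1 (0.52).

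Several genes of excitation and calcium release differed. Of 19 calcium handling genes 7 were higher and 1 lower in AJ, and of 26 ion channel genes 7 were higher and 3 lower. These shares (42.1% and 38.5% called) are near the background. Without WSB_1, 6 calcium handling genes were higher and 4 lower, the latter being Casq2, Ryr2, the release channel (-0.45), Atp2a2, the calcium pump of the reticulum (-0.31), and Cacna1c, the pore of the L-type channel (-0.17). Casq2, the calcium buffer of the reticulum, was measured at 684 to 822 CPM (median 739) in AJ, 1209 to 1339 (median 1242) in 7 WSB libraries and 390.4 in WSB_1. Its 7 WSB libraries lay far above AJ and WSB_1 far below it (log2 fold change -0.62 ± 0.12 (SE), adjusted p = 1.09e-05, and without WSB_1 -0.75, adjusted p = 7.64e-13). Camk2d, the main calcium-dependent kinase of heart, was higher in AJ without overlap (0.65). The calcium channel subunit gene Cacnb2 (0.39, not called without WSB_1) and Mcu, the calcium uniporter of mitochondria (0.31), were higher as well. Fkbp1b, which stabilises the release channel, differed by 0.90 at levels under 1 CPM, and its call was lost without AJ replicate 2 or 7 or WSB replicate 8 or 9 (adjusted p up to 0.0741) and with AJ_2, AJ_7 and AJ_8 left out together (adjusted p = 0.127).

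Kcnj2 (chr11:111066164-111076821), the main gene of the inward rectifier current that holds the resting potential, was measured at 33.0 to 47.4 CPM (median 40.8) in AJ, 60.7 to 117 (median 86.2) in 7 WSB libraries and 28.5 in WSB_1. Apart from WSB_1, all WSB libraries exceeded AJ (log2 fold change -1.02 ± 0.17 (SE), adjusted p = 9.21e-07, and without WSB_1 -1.16, adjusted p = 2.14e-09). Hcn4, the pacemaker channel, had the same pattern (-0.77, and -0.96 without WSB_1), but did not pass when only the 16 AJ and WSB libraries were fitted (adjusted p = 0.0872). Scn4b, a beta subunit of sodium channels, went the other way and was measured at 141 to 174 CPM (median 155) in AJ, 72.1 to 112 (median 84.6) in 7 WSB libraries and 18.2 in WSB_1 (log2 fold change 1.01 ± 0.21 (SE), adjusted p = 1.05e-04), with every AJ library above every WSB library. Kcnj14, another inward rectifier, was higher in AJ at 1.11, and the T-type calcium channel gene Cacna1g at 0.73.

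Most genes of antigen presentation were higher in AJ. Of 25 measured genes, 21 were higher in AJ, 2 lower and 2 did not pass (92.0% called), with a median log2 fold change of 1.22, and 1.37 without WSB_1. The class I transactivator gene Nlrc5 (chr8:94472763-94527272), which drives class I genes and their helpers, was measured at 2.20 to 15.8 CPM (median 3.34) in AJ and 0.436 to 1.65 (median 0.679) in WSB. Groups did not overlap, and AJ_3 and AJ_4 were the highest AJ libraries (log2 fold change 2.82 ± 0.39 (SE), adjusted p = 2.46e-08, and 2.44 without AJ_3). B2m (chr2:122147686-122153083), the light chain of class I molecules, was measured at 109 to 274 CPM (median 125) in AJ, 63.6 to 78.9 (median 67.7) in 7 WSB libraries and 159 in WSB_1 (log2 fold change 0.998 ± 0.18 (SE), adjusted p = 1.06e-05). Psmb9, a subunit of the immunoproteasome, was measured at 3.23 to 11.9 CPM (median 3.99) in AJ, 1.24 to 2.46 (median 1.67) in 7 WSB libraries and 5.91 in WSB_1 (log2 fold change 1.22 ± 0.25 (SE), adjusted p = 4.42e-05). In both genes WSB_1 lay among the AJ libraries and the other 7 WSB libraries lay below them all.

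The class I heavy chain H2-D1 was measured at 58.7 to 135 CPM (median 71.7) in AJ, 6.36 to 7.47 (median 6.96) in 7 WSB libraries and 26.3 in WSB_1 (log2 fold change 3.12 ± 0.21 (SE), adjusted p = 3.47e-19), and H2-Q7 and H2-Q6 had log2 fold changes of 3.42 and 4.95. These genes are polymorphic and H2-Q6 and H2-Q7 are near-identical, so a count can move between them. Summed with its copy, H2-Q6 differed by 3.999 ± 0.40 (SE), adjusted p = 2.41e-12. Both lower members of the list have copies as well. H2-T22 was lower in AJ at -3.36, but summed with 2 near-identical copies it differed by -0.24 with an adjusted p of 0.221. H2-T23 was lower at -0.83, and at -0.66 with its copies. Class II genes were higher in AJ as well. H2-Eb1 was measured at 5.57 to 22.6 CPM (median 9.70) in AJ and 0.101 to 0.436 (median 0.193) in WSB (log2 fold change 5.65 ± 0.45 (SE), adjusted p = 4.18e-16), and H2-Ab1 at 5.33 to 23.8 CPM (median 10.4) in AJ, 2.90 to 3.70 (median 3.08) in 7 WSB libraries and 6.44 in WSB_1 (log2 fold change 1.73 ± 0.32 (SE), adjusted p = 1.04e-05). Cd74, their invariant chain, was measured at 18.5 to 94.5 CPM (median 37.0) in AJ and 14.8 to 24.96 (median 17.0) in WSB with overlap (log2 fold change 1.31 ± 0.34 (SE), adjusted p = 0.00141). Ciita, the class II transactivator, was higher at 1.51. Class II genes are also expressed by B cells and macrophages, whose marker levels are given below.

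Interferon response genes were higher in AJ in 17 of 32 measured members and lower in 1 (56.2% called, median 0.44). Ifit3 was the lower one (-0.70) and did not pass without WSB_1 (adjusted p = 0.117) or when summed with its copy Ifit3b (-0.31 ± 0.23 (SE), adjusted p = 0.282). Without WSB_1, 24 were higher and 0 lower (median 0.62). AJ_3 and AJ_4 were the highest AJ libraries for Gbp2b, Gbp3, B2m and Igtp. Igtp, an interferon-inducible GTPase, was measured at 40.4 CPM in AJ_3 and 72.0 in AJ_4, but at 6.57 to 10.4 in the other 6 AJ libraries, against 3.53 to 7.14 CPM (median 5.36) in WSB. Its difference (log2 fold change 1.90 ± 0.35 (SE), adjusted p = 1.36e-05) was 1.25 without AJ_4 (adjusted p = 5.49e-04). Gbp3 was measured at 6.12 to 29.8 CPM (median 7.67) in AJ and 1.81 to 3.43 (median 2.36) in WSB, without overlap (log2 fold change 2.15 ± 0.27 (SE), adjusted p = 2.10e-09). Zbp1 and Oas3, sensors of viral nucleic acid, were measured under 5 CPM in every library. Their log2 fold changes of 2.34 and 2.19 were 1.45 and 1.55 without AJ_3 and still passed (adjusted p = 0.0114 and 0.00869). Without AJ_3, 15 interferon genes and 21 antigen presentation genes were called.

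**Figure D3:**
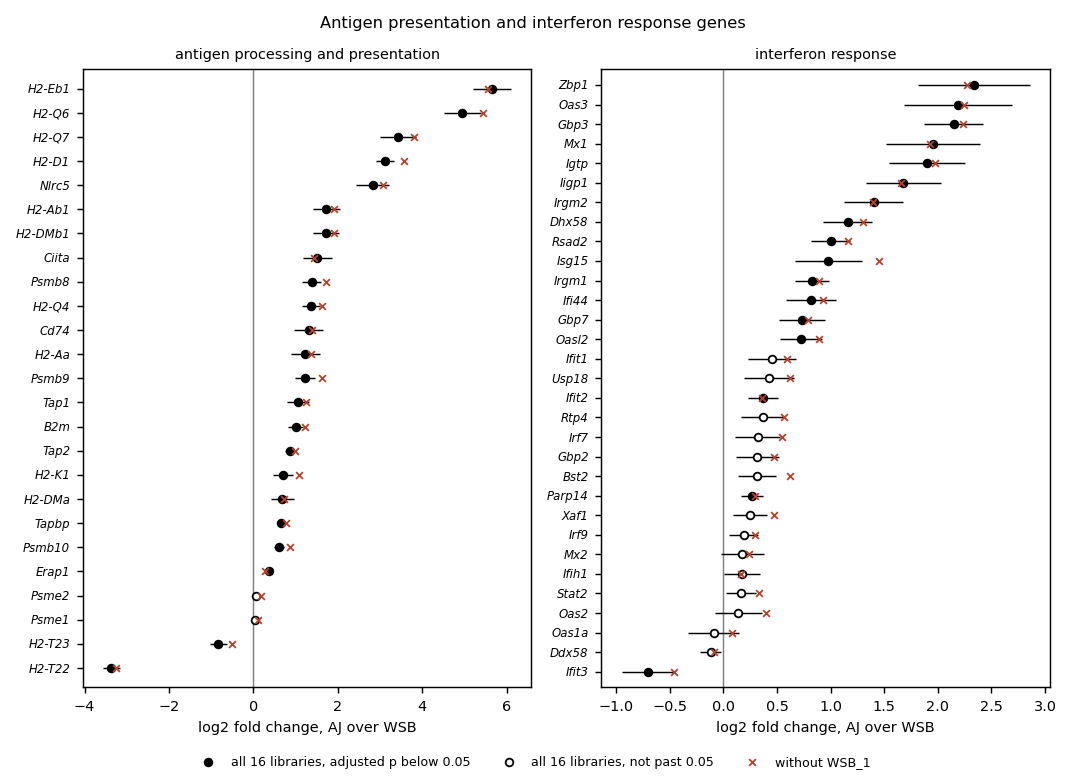
Log2 fold change of AJ over WSB for measured genes of the antigen presentation and interferon lists, with bars for 1 SE, filled circles for an adjusted p below 0.05, open circles for genes that did not pass, and crosses for the value without WSB_1. Most antigen presentation genes lie between 0 and 2, with H2-Eb1 at 5.65 and H2-T22 at -3.36.

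Promoters of 5 of these genes are shown because they hold one element in common. Interferon-stimulated genes are known for the response element GAAANNGAAA, searched on both strands of the RefSeq promoters of GRCm38.p6 (250 bases before to 50 after each start). Of the 32 measured interferon genes, 22 had a promoter in that table and 16 of them held the element, as did 5 of 20 antigen presentation genes and 3.44% of all 32851 promoters. The stretches below are 100 bases of these promoters before the start site, read 5′ to 3′ on the strand of the gene, with the element in capitals. They are the sequence of the B6 reference and not of AJ or WSB, and a match is a description of letters, not of a bound site. They lie at chr3:142594665-142594764 (+ strand) for Gbp2b, chr3:142559944-142560043 (+ strand) for Gbp3, chr11:58199456-58199555 (+ strand) for Igtp, chr11:58214868-58214967 (+ strand) for Irgm2 and chr2:122147503-122147602 (+ strand) for B2m.
Gbp2b: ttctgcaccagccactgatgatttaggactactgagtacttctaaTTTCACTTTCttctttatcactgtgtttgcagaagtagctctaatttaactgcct
Gbp3: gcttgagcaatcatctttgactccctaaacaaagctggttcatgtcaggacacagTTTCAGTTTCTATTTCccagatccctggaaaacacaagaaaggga
Igtp: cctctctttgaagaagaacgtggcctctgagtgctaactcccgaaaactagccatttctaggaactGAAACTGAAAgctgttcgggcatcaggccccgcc
Irgm2: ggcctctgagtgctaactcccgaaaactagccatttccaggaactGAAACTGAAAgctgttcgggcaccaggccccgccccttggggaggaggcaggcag
B2m: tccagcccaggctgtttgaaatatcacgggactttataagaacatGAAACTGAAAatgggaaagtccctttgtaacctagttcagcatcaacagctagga
The Igtp and Irgm2 stretches share most of their letters, the exons of these neighbours overlap on the same strand, and Irgm2 was also higher in AJ (log2 fold change 1.40 ± 0.28 (SE), adjusted p = 3.27e-05). Gbp2b and Gbp3 hold the element on the reverse strand, in Gbp3 as overlapping matches. The related site TTCNNNGAA, the palindrome of the gamma-interferon activation site, was in 6 of the 22 interferon promoters and 1 of the 20 antigen presentation promoters, against 8.3% of all promoters.

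Among leukocyte markers, genes of B and plasma cells were higher in AJ in 13 of 14 measured members (median 3.08). Their summed level split the AJ libraries. It was 88.9 to 251 CPM in 5 of them and 7.19 to 10.6 in AJ_2, AJ_7 and AJ_8, against 2.57 to 15.5 in WSB. Igkc, the kappa light chain of antibodies, had log2 fold change 4.92 ± 0.90 (SE), adjusted p = 9.75e-06. Without AJ_2, AJ_7 and AJ_8, the lowest AJ libraries for Igkc, it was 5.57. A larger value follows from leaving out the lowest libraries and is no separate evidence of a difference. Without those 3 libraries, 23 antigen presentation genes and 21 interferon genes were called. Macrophage genes came to 203 to 325 summed CPM in AJ, 199 to 263 in 7 WSB libraries and 247 in WSB_1. Of 14, 6 were higher in AJ, which were Folr2, Timd4 (1.60), Cx3cr1 (1.51), Cd68 (0.98), Ccr2 (0.77, not called without WSB_1) and Mertk (0.46), and none was lower. This share of macrophage genes (42.9% called, median 0.24) is near the 41.7% of all genes. Without WSB_1, 5 were higher and 1, Cd163, lower (-0.40, adjusted p = 0.0318). T and NK cell genes summed to under 4 CPM in every library. The part of these cells in the antigen presentation result was not tested.

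Several components of complement were higher in AJ, and the inhibitor genes Cd59a and Cfi lower. Of 22 measured genes, 9 were higher and 5 lower (63.6% called). Masp1 (chr16:23451785-23520590), the protease of the lectin pathway, was measured at 6.89 to 9.63 CPM (median 8.15) in AJ and 0.390 to 1.20 (median 0.770) in WSB. No library overlapped, and WSB was below all 47 libraries of the other strains (log2 fold change 3.42 ± 0.18 (SE), adjusted p = 1.86e-25). C4b was measured at 17.0 to 72.2 CPM (median 36.2) in AJ and 10.4 to 15.3 (median 12.9) in WSB (log2 fold change 1.56 ± 0.31 (SE), adjusted p = 3.68e-05), and summed with its copy C4a it differed by 1.44. C3, on which all pathways meet, was measured at 161 to 381 CPM (median 217) in AJ, 62.4 to 112 (median 95.6) in 7 WSB libraries and 211 in WSB_1 (log2 fold change 1.14 ± 0.25 (SE), adjusted p = 1.77e-04). Of the inhibitors, Serping1 was higher in AJ (0.49), while Cd59a (-0.69) and Cfi (-1.49) were lower. Procr, the endothelial receptor of protein C, was measured at 0.765 to 1.26 CPM (median 1.04) in AJ and 2.03 to 7.03 (median 2.63) in WSB (log2 fold change -1.63 ± 0.17 (SE), adjusted p = 5.38e-12), and thrombomodulin, Thbd, was lower with it (-0.44).

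Heat shock genes were lower in AJ in 14 of 21 measured members, higher in 2, and did not pass in 5 (median -0.41, and -0.39 without WSB_1). Hspa1b (chr17:34956436-34959238), an inducible HSP70, was measured at 5.02 CPM at the lowest, 21.3 at the median and 54.1 at the highest of the 8 AJ libraries, against 81.3, 191 and 431 in the 8 WSB libraries. All AJ libraries were below all WSB libraries (log2 fold change -3.16 ± 0.72 (SE), adjusted p = 2.63e-04). Hspa1a is its near-identical neighbour and differed by -2.04, and their summed counts by -2.63 ± 0.67 (SE), adjusted p = 0.00109. Hsph1 (chr5:149614287-149636376), the nucleotide exchange factor of HSP70, was measured at 59.5 to 98.1 CPM (median 88.1) in AJ, 198 to 321 (median 241) in 7 WSB libraries and 109 in WSB_1. WSB_1 was the WSB library nearest to AJ and did not overlap it (log2 fold change -1.37 ± 0.27 (SE), adjusted p = 2.87e-05). Hsp90aa1, the inducible HSP90, was measured at 248 to 319 CPM (median 295) in AJ and 554 to 704 (median 613) in WSB (log2 fold change -1.08 ± 0.18 (SE), adjusted p = 1.02e-06), and the J-domain genes Dnaja1 (-0.90) and Dnajb1 (-0.85) and the small chaperone genes Hspb1 (-0.81) and Cryab (-0.40) were lower too. The other 6 strains had Hsph1 means of 67.8 to 137 CPM and Hsp90aa1 means of 201 to 379 CPM, so for both genes the AJ mean lay inside and the WSB mean above this range. Chaperones of mitochondria did not share one direction. Hspe1 was lower in AJ (-0.50), Hspa9 higher at 0.26 with a call lost in the fit of the 16 libraries alone (adjusted p = 0.204) and without AJ_2, AJ_7 and AJ_8 (adjusted p = 0.0678), and Hspd1 at -0.15 did not pass (adjusted p = 0.32). The other higher member was Hspb8 (0.23, not called without WSB_1), a small chaperone of muscle.

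The heat shock element is known as inverted repeats of GAA, and promoters of 2 members are shown to print it. The motif GAANNTTCNNGAA with 3 units, on both strands, was in 3 of 16 heat shock genes with a promoter in the table (Hspd1, Hspe1 and Hsph1) and in 0.603% of all promoters. The shorter forms with 2 units, GAANNTTC or TTCNNGAA, which overlap the longer one, were in 11 of the 16 and in 15.1% of all promoters. The stretches lie at chr1:55088018-55088117 (+ strand) for Hspe1 and chr17:34959289-34959388 (- strand) for Hspa1b, with the 3-unit matches in capitals for Hspe1 and the 2-unit match for Hspa1b.
Hspe1: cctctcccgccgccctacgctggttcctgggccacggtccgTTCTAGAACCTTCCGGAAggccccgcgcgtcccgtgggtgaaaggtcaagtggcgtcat
Hspa1b: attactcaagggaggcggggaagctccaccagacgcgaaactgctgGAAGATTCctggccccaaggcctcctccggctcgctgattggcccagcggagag
Hspe1 and Hspd1 are divergent neighbours whose exons overlap on opposite strands. Of this pair the first passed the test and the second did not, and the difference between them was not tested.

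**Figure D4:**
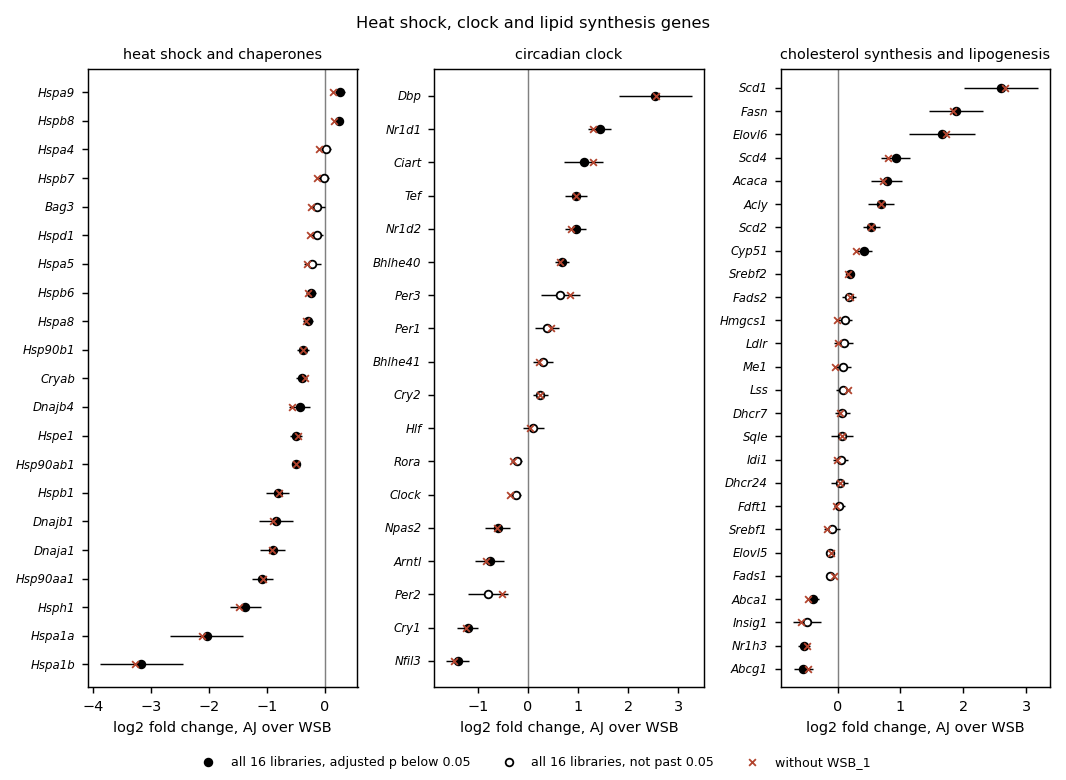
Log2 fold change of AJ over WSB for measured genes of the heat shock, clock and lipid synthesis lists, drawn as circles (filled where the adjusted p was below 0.05) with bars for 1 SE and crosses for the value without WSB_1. Heat shock genes lie mostly below 0, while clock genes spread to both sides, from -1.41 for Nfil3 to 2.54 for Dbp.

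Clock genes differed in both directions. Of 18 measured members 6 were higher and 4 lower in AJ (55.6% called). The repressor gene Nr1d1 (chr11:98767932-98775333), also called REV-ERB alpha, was measured at 80.8 to 103 CPM (median 88.1) in AJ and 9.09 to 72.8 (median 29.3) in WSB. All AJ libraries exceeded all WSB libraries, of which WSB_9 was the highest (log2 fold change 1.43 ± 0.23 (SE), adjusted p = 6.85e-07). Dbp, a clock output factor that peaks at about the same time of day, was measured at 8.06 to 21.91 CPM (median 16.3) in AJ and 1.02 to 9.44 (median 1.43) in WSB. WSB_9 overlapped AJ with 9.44 CPM, and without it the difference of 2.54 became 3.23 (adjusted p = 7.09e-04). Tef (0.96), Ciart (1.11) and Nr1d2 (0.95), which peak near Dbp, were higher in AJ as well, as was Bhlhe40 (0.67), a repressor of the clock. Nfil3, the factor that opposes Dbp, was measured at 10.9 to 15.8 CPM (median 12.01) in AJ and 18.9 to 52.9 (median 32.8) in WSB, without overlap and with AJ low (log2 fold change -1.41 ± 0.22 (SE), adjusted p = 5.60e-07). Cry1 (log2 fold change -1.21 ± 0.20 (SE), adjusted p = 2.02e-06), Npas2 (-0.61) and Arntl, the gene of BMAL1 (log2 fold change -0.77 ± 0.29 (SE), adjusted p = 0.0296), were lower in AJ too. WSB_9 lay inside the AJ range for Cry1 (8.65 CPM), as did WSB_1 and WSB_9 for Arntl (20.8 and 19.6 CPM). The call for Arntl was lost without AJ replicate 6 or AJ replicate 8 (adjusted p = 0.056 and 0.0607) and without AJ_2, AJ_7 and AJ_8 together (adjusted p = 0.143). The time of day at collection is not given in the labels used here, and its part in these differences was not tested.

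The REV-ERB and ROR proteins are known to bind TAGGTCA, and the pair CLOCK and BMAL1 the E-box CACGTG. On both strands, the first motif was in 2 of 16 clock genes with a promoter in the table, Arntl and Nfil3, which were both lower in AJ, and in 2.61% of all promoters. The E-box was in 5 of the 16 (Bhlhe41, Ciart, Cry1, Per1 and Tef) and in 7.15% of all promoters. The D-box TTATGTAA, bound by DBP and NFIL3, was in 1 of the 16 (Per3) and in 0.938% of all promoters. The stretches of Nfil3, at chr13:52981040-52981139 (- strand), and of Ciart, at chr3:95882256-95882355 (- strand), are shown as a gene of each direction, with the ROR and REV-ERB motif in capitals in the former and the E-box in the latter.
Nfil3: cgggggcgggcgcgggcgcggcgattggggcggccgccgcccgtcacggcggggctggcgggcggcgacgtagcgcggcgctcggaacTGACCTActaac
Ciart: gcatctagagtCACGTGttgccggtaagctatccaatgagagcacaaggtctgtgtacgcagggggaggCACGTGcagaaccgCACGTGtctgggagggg

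Among genes that respond within minutes, 5 of 21 immediate early genes were higher in AJ and none was lower. These 23.8% stand beside 20.2% of all genes higher in AJ and 41.7% called in either direction, so the list as a whole was not called more often. Nr4a1, an orphan nuclear receptor induced within minutes, was measured at 74.0 to 132 CPM (median 106) in AJ and 13.1 to 48.2 (median 28.7) in WSB (log2 fold change 1.93 ± 0.36 (SE), adjusted p = 1.72e-05), and Egr3 at 0.837 to 2.06 CPM (median 1.41) in AJ and 0 to 0.530 (median 0.358) in WSB (log2 fold change 2.06 ± 0.44 (SE), adjusted p = 1.00e-04), both without overlap. The other higher members were Btg2 (1.19), Nr4a2 (0.69) and Fosl2 (0.55, not called without WSB_1). Fos (0.60, adjusted p = 0.307) and Egr1 (0.43, adjusted p = 0.443) did not pass. None of 9 glucocorticoid-induced genes was higher and 4 were lower, namely Lcn2 (-1.43, not called without WSB_1), Ddit4 (-1.11), Cdkn1a (-0.86) and Fkbp5 (-0.73, not called without WSB_1). The share called (44.4%) is near the 41.7% of all genes, and without WSB_1, 2 members were lower.

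Several genes of fatty acid synthesis were higher in AJ. Genes that fatty acids are known to induce went both ways, with Angptl4, Acot1 and Ucp3 lower and Cpt1a and Plin2 higher, and no list of such genes was counted. Scd1 (chr19:44394451-44407709), which makes oleate, was measured at 67.2 to 856 CPM (median 277) in AJ and 30.5 to 116 (median 39.5) in WSB. AJ_3 and AJ_1 were highest, and AJ_2, AJ_7 and AJ_8 were below WSB_9, the highest WSB library (log2 fold change 2.60 ± 0.59 (SE), adjusted p = 2.60e-04). Summed with its near-identical relative Scd2, the difference was 2.08. Fasn, the fatty acid synthase, was measured at 49.6 to 432 CPM (median 97.6) in AJ and 28.0 to 80.7 (median 33.7) in WSB with the same libraries at the extremes and in the overlap (log2 fold change 1.89 ± 0.43 (SE), adjusted p = 2.67e-04). Elovl6, which lengthens palmitate, differed by 1.66 and lost its call without AJ_3 (1.01, adjusted p = 0.107) and in limma on the variance-stabilised values (adjusted p = 0.0547). Acly (0.68) and Acaca (0.78), which feed the synthase, were also higher, while the cholesterol synthesis gene Sqle did not pass (0.07, adjusted p = 0.793). Over the list of cholesterol and fatty acid synthesis, 9 of 27 genes were higher and 3 lower (44.4% called, near the 41.7% of all genes). The lower ones, Abca1 (-0.39), Abcg1 (-0.54) and Nr1h3 (-0.54), serve the export of cholesterol, Nr1h3 as the gene of the sterol sensor LXR alpha.

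Several fat cell markers were also higher in AJ. Of 10 adipocyte genes 7 were higher in AJ and 1, Fabp4, lower (-0.44), and they came to 317 to 478 summed CPM in AJ, 302 to 418 in 7 WSB libraries and 1207 in WSB_1. Fabp4, which vessels of the heart also express, made up most of this sum and did not pass without WSB_1 (-0.05, adjusted p = 0.756). Adipoq, the gene of adiponectin, was measured at 0.765 to 10.7 CPM (median 4.43) in AJ, 0.0344 to 3.15 (median 0.436) in 7 WSB libraries and 4.55 in WSB_1 (log2 fold change 1.97 ± 0.71 (SE), adjusted p = 0.021). Its value was 2.69, adjusted p = 0.00388 without WSB_1, and adjusted p = 0.0527 without AJ_6. Lep, the gene of leptin, had 178 counts in AJ and 3 in WSB, a ratio of 51.1 with a 95% counting interval of 17.5 to 248. Ucp1, the uncoupling protein of brown fat, had 2175 counts in AJ and 2 in WSB, a ratio of 936 with an interval of 259 to 7730.1, and AJ_2 had none. Plin1 (2.96), Car3 (2.29), Cidec (2.17) and Cidea (0.36) were the other higher members. Cfd, another fat cell gene, was at 37.0 CPM in WSB_1 and did not pass (log2 fold change 0.53 ± 0.75 (SE), adjusted p = 0.606, and without WSB_1 1.84, adjusted p = 0.0512). Without the 3 AJ libraries with the least B cell signal, which also had the 3 lowest Adipoq values, the change of Scd1 was 3.12 and that of Fasn 2.33. These libraries were also the lowest in AJ for Scd1 and Fasn, so larger values follow from leaving them out. The part of fat tissue in the lipid synthesis result was not tested.

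Angptl4 (chr17:33773750-33781575), the inhibitor of lipoprotein lipase that fatty acids induce through PPAR proteins, was measured at 6.12 to 17.5 CPM (median 8.36) in AJ and 4.78 to 71.4 (median 42.5) in WSB. WSB_9 (4.78 CPM) lay below all AJ libraries and the other 7 WSB libraries above them all (log2 fold change -2.24 ± 0.44 (SE), adjusted p = 3.75e-05). Acot1, an acyl-CoA thioesterase, was measured at 7.51 to 14.3 CPM (median 10.2) in AJ and 14.6 to 37.5 (median 31.1) in WSB without overlap (log2 fold change -1.48 ± 0.31 (SE), adjusted p = 7.71e-05), and summed with its copy Acot2 it differed by -0.78 (adjusted p = 8.35e-04). Ucp3, the uncoupling protein of muscle, was lower at -1.11 with overlap. Cpt1a, the liver-type gate of fatty acid entry to mitochondria, was higher in AJ, at 65.5 to 73.5 CPM (median 70.1) in AJ and 41.0 to 51.7 (median 44.3) in WSB (log2 fold change 0.65 ± 0.07 (SE), adjusted p = 3.21e-11). Acot13 was also higher (0.73). In all, 2 of 26 beta-oxidation genes were higher and 6 lower (30.8% called). Of 24 genes of uptake and droplets 3 were higher and 5 lower (33.3% called). Both shares are below the 41.7% of all genes. The droplet genes Dgat1 (0.62), which makes triglyceride, and Plin2 (0.53), which coats droplets, were higher in AJ without overlap, and G0s2, an inhibitor of lipolysis, was higher too (0.49). Lipe, the hormone-sensitive lipase, was lower, at 30.8 to 42.3 CPM (median 32.7) in AJ and 44.8 to 67.6 (median 53.6) in WSB (log2 fold change -0.70 ± 0.12 (SE), adjusted p = 1.15e-06). Gpihbp1, which anchors lipoprotein lipase to capillaries, was lower at -0.52, and at -0.17 without WSB_1 it did not pass (adjusted p = 0.214). Of 20 PPAR and PGC-1 regulators 1, Sirt3, was higher (0.31) and 2, Perm1 (-0.38) and Nrf1 (-0.33), lower (15% called). Without WSB_1, 1 was higher and 7 lower.

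Glucose genes differed in number above the background, 11 higher and 5 lower of 27 (59.3% called), mostly by small amounts. Pygb (chr2:150786735-150831758), the brain-type glycogen phosphorylase, was measured at 854 to 1001 CPM (median 929) in AJ, 347 to 433 (median 419) in 7 WSB libraries and 80.9 in WSB_1. All AJ libraries were above WSB and WSB_1 was far below the rest (log2 fold change 1.36 ± 0.13 (SE), adjusted p = 1.60e-13). Pfkp, the platelet-type phosphofructokinase, was lower in AJ, at 41.7 to 69.2 CPM (median 50.2) in AJ, 109 to 162 (median 119) in 7 WSB libraries and 77.5 in WSB_1 (log2 fold change -1.22 ± 0.12 (SE), adjusted p = 1.72e-13). Pfkfb2, which makes the activator of that step, differed by -0.38 and did not pass in the fit of the 16 libraries alone (adjusted p = 0.0603). Gapdh was higher at 0.89, and at 0.74 when summed with the copies in the table. In the TCA cycle list, 8 of 27 genes were higher and 1, Idh3g (-0.16), lower (33.3% called, against 41.7% of all genes). The pyruvate dehydrogenase kinase genes Pdk1 (0.71) and Pdk2 (0.42) were among the higher. Without WSB_1, 8 were higher and 7 lower. Ketone and branched-chain amino acid genes were higher in 8 of 20, led by Acat1 (0.61) and Dbt (0.51), and lower in 1, Hibch (-0.33). This share (45% called) is near the 41.7% of all genes.

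Insulin and growth factor signalling genes were lower in AJ in 11 of 21 and higher in 4 (71.4% called). The substrates of the insulin receptor moved apart. Irs1 was measured at 35.9 to 63.3 CPM (median 50.1) in AJ, 82.4 to 196 (median 125) in 7 WSB libraries and 13.5 in WSB_1 (log2 fold change -1.20 ± 0.24 (SE), adjusted p = 5.89e-05). Irs2 was measured at 33.6 to 98.9 CPM (median 63.5) in AJ, 23.4 to 45.5 (median 37.3) in 7 WSB libraries and 11.2 in WSB_1 (log2 fold change 0.98 ± 0.33 (SE), adjusted p = 0.0127), and its call was lost without AJ_2, AJ_7 and AJ_8 (adjusted p = 0.0709). Igf1, the growth factor, was lower in AJ without overlap, at 6.89 to 11.5 CPM (median 9.89) in AJ and 13.7 to 20.4 (median 17.8) in WSB (log2 fold change -0.88 ± 0.14 (SE), adjusted p = 2.75e-07), and Foxo1 (-0.57) and Foxo3 (-0.46), which insulin restrains, were lower too. Grb14, an inhibitor of the receptor, was higher (0.93). In the adrenergic, endothelin and angiotensin list 4 of 22 genes were higher and 6 lower (45.5% called, near the 41.7% of all genes). Higher were Adrb3 (2.38, and 3.61 without WSB_1), the muscarinic receptor gene Chrm2 (0.58), Adcy5 (0.51) and Pde4d (0.40). The adipocyte list also had a larger median log2 fold change without WSB_1 (2.80, against 2.07 with it). The part of fat cells in the Adrb3 difference was not tested. The angiotensin receptor gene Agtr1a (-0.93) and Adrb1, the main beta adrenergic receptor of heart (-0.38), were lower. Agt, the precursor of angiotensin, was measured at 0.922 to 2.41 CPM (median 1.51) in AJ and 4.20 to 6.97 (median 5.01) in WSB (log2 fold change -1.69 ± 0.26 (SE), adjusted p = 3.03e-07), and Adra1a, an alpha adrenergic receptor, at 8.90 to 21.7 CPM (median 14.7) in AJ, 22.1 to 48.1 (median 36.8) in 7 WSB libraries and 6.58 in WSB_1 (log2 fold change -1.02 ± 0.19 (SE), adjusted p = 1.32e-05).

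Antioxidant genes were called in 58.3% of members, with 13 of 36 higher and 8 lower in AJ. Glo1 (chr17:30592866-30612659), which detoxifies methylglyoxal, was measured at 259 to 275 CPM (median 266) in AJ, 76.0 to 89.8 (median 80.5) in 7 WSB libraries and 46.7 in WSB_1. Every AJ library exceeded all other libraries of the set (log2 fold change 1.79 ± 0.07 (SE), adjusted p = 2.64e-32). Nqo1, a quinone reductase under NRF2, was measured at 37.0 to 50.4 CPM (median 45.8) in AJ, 18.6 to 22.3 (median 19.4) in 7 WSB libraries and 10.8 in WSB_1 (log2 fold change 1.26 ± 0.09 (SE), adjusted p = 3.71e-18), and Gstt1, a glutathione transferase, at 7.07 to 9.27 CPM (median 7.51) in AJ, 1.26 to 2.48 (median 1.45) in 7 WSB libraries and 5.33 in WSB_1 (log2 fold change 1.88 ± 0.16 (SE), adjusted p = 1.03e-15). On the other side, the metallothionein gene Mt2 was measured at 2.61 to 6.94 CPM (median 5.59) in AJ and 7.89 to 34.4 (median 16.9) in WSB (log2 fold change -1.81 ± 0.40 (SE), adjusted p = 1.87e-04), and Gsta3 differed by -0.87. Nnt, the transhydrogenase that regenerates NADPH in mitochondria, was measured at 627 to 768 CPM (median 749.5) in AJ, 634 to 721 (median 668) in 7 WSB libraries and 118 in WSB_1. It did not pass with all libraries (log2 fold change 0.30 ± 0.13 (SE), adjusted p = 0.0706) and passed without WSB_1 (0.14, adjusted p = 0.042).

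The mitochondrial genome took 22.1 ± 1.35% (SD, n = 8) of counts in AJ and 22.4 ± 1.76% (SD, n = 8) in WSB. The difference of -0.265 percentage points was smaller than the spread between libraries (two-sided exact permutation test, p = 0.741, with 0.000155 the smallest p it allows). Without WSB_1 it was 0.138 points (exact permutation p = 0.845). Of 13 genes of that genome 1, mt-Nd2, was higher (0.21, not called without WSB_1) and 1, mt-Cytb, lower (-0.16), which is 15.4% called. Nuclear genes of the respiratory chain were lower in 19 of 72 and higher in 4 (31.9% called, against 41.7% of all genes). Without WSB_1, whose short transcripts were high, 12 were lower and 11 higher. Atp5g2, a gene of the ATP synthase ring, was at 128 ± 6.84 CPM (SD, n = 8) in AJ and 8.61 ± 2.64 (SD, n = 8) in WSB (3.89). Its near-identical copy Gm10175, a processed pseudogene, ran the other way, at 0.276 ± 0.136 CPM (SD, n = 8) in AJ and 118 ± 7.58 (SD, n = 8) in WSB. Summed, they differed by 0.02 ± 0.05 (SE), adjusted p = 0.807. The other higher members were Ndufs4 (0.24), Ndufa10 (0.16) and Atp5c1 (0.14, not called without WSB_1).

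Few genes of the interstitial matrix differed. Of the list, 6 of 34 were higher and 3 lower in AJ (26.5% called, against 41.7% of all genes). The fibrillar collagen genes Col1a1 (-0.01, adjusted p = 0.969) and Col3a1 (-0.04, adjusted p = 0.908) did not pass. Without WSB_1, 10 of the list were higher and 2 lower. Postn, periostin, was measured at 37.4 to 59.5 CPM (median 54.4) in AJ and 15.6 to 24.6 (median 18.4) in WSB (log2 fold change 1.38 ± 0.15 (SE), adjusted p = 4.68e-11), and Thbs4, thrombospondin 4, at 13.7 to 19.8 CPM (median 17.1) in AJ and 4.54 to 7.65 (median 5.74) in WSB (log2 fold change 1.52 ± 0.11 (SE), adjusted p = 4.67e-18), both without overlap. Fn1, fibronectin, was higher with overlap (log2 fold change 1.05 ± 0.23 (SE), adjusted p = 2.12e-04). Lox, the enzyme that crosslinks collagen, was lower in AJ, at 2.51 to 5.42 CPM (median 4.02) in AJ and 7.77 to 13.97 (median 11.5) in WSB (log2 fold change -1.54 ± 0.24 (SE), adjusted p = 2.47e-07), and the gelatinase gene Mmp2 (-0.28) and Sparc (-0.30, not called without WSB_1) were lower too.

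Of 18 basement membrane genes, 38.9% were called, near the 41.7% of all genes. They were lower in 6 and higher in 1, Lama2, the laminin chain of muscle (0.28, not called without WSB_1). Col4a6 (chrX:141165403-141474076), a chain of collagen IV, was measured at 0 to 0.251 CPM (median 0.122) in AJ and 4.68 to 9.75 (median 6.51) in WSB. AJ was below all other libraries of the set (log2 fold change -5.72 ± 0.25 (SE), adjusted p = 4.37e-29). Its partner Col4a5, which lies next to it head to head on the X chromosome, differed by -0.26 (adjusted p = 0.00591). Lama5, a laminin chain of vessels, was lower, at 91.3 to 115 CPM (median 108) in AJ and 124 to 205 (median 159) in WSB (log2 fold change -0.58 ± 0.12 (SE), adjusted p = 4.87e-05). Of 32 measured Wnt genes 6 were higher and 10 lower (50% called). The secreted inhibitor gene Wif1 was measured at 13.3 to 17.5 CPM (median 16.5) in AJ and 3.41 to 5.82 (median 4.92) in WSB, in AJ above all other libraries of the set (log2 fold change 1.80 ± 0.16 (SE), adjusted p = 2.77e-15). The ligand gene Wnt9b, expressed in endocardium, was lower, at 0.246 to 0.716 CPM (median 0.443) in AJ, 0.898 to 2.86 (median 1.74) in 7 WSB libraries and 6.27 in WSB_1 (log2 fold change -2.48 ± 0.26 (SE), adjusted p = 2.67e-12). The secreted inhibitor genes Sfrp2 (-1.25), Dkk2 (-1.21), Sfrp5 (-1.10) and Sfrp1 (-0.56) were lower, and Frzb (0.67) of the same kind higher. The receptor gene Fzd2 was higher (1.12).

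Markers of the other cells in heart moved in several directions. Endothelial genes were lower in AJ in 12 of 18 and higher in 1, Ly6c1, and without WSB_1 lower in 8 and higher in 2. Their sum was 1662 to 1825 summed CPM in AJ, 1740.0 to 2135 in 7 WSB libraries and 3401 in WSB_1. Plvap, the diaphragm protein of vessels, was measured at 7.10 to 10.9 CPM (median 9.22) in AJ, 11.6 to 19.3 (median 16.9) in 7 WSB libraries and 40.0 in WSB_1 (log2 fold change -1.08 ± 0.16 (SE), adjusted p = 1.71e-07, and without WSB_1 -0.83, adjusted p = 1.63e-06). Red cell genes came to 1980.1 to 3764 summed CPM in AJ, 1075 to 1933 in 7 WSB libraries and 4037 in WSB_1. Of 8 measured, 6 were higher in AJ, and the globin gene Hba-a1 was lower (-6.76) while its near-identical neighbour Hba-a2 was higher (1.28). Summed, the pair differed by 0.53 ± 0.21 (SE), adjusted p = 0.0342. Schwann cell and nerve genes came to 17.7 to 22.5 summed CPM in AJ, 23.1 to 28.6 in 7 WSB libraries and 46.2 in WSB_1. Of 9 measured, 3 were lower in AJ, 0 higher and 6 did not pass (33.3% called, against 41.7% of all genes). The median log2 fold change was -0.05, and 0.04 without WSB_1. Among the lower members were Sox10, a transcription factor of these cells (-0.89), and Cdh19, a cadherin (-1.10).

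Of 11 smooth muscle and pericyte genes 5 were lower and 1, Acta2, higher, with sums of 1124 to 1368 summed CPM in AJ, 1027 to 1295 in 7 WSB libraries and 1296 in WSB_1. Of 7 atrial genes 1, Sln, was higher (0.49) and 1, Nr2f2, lower (-0.30, not called without WSB_1), which is 28.6% called. Epicardial genes were higher in 3 of 7 (42.9% called, near the 41.7% of all genes), namely Lrrn4 (0.70), Upk3b (0.64) and Muc16 (0.62). The epicardial list came to 50.1 to 106 summed CPM in AJ, 34.3 to 57.3 in 7 WSB libraries and 134 in WSB_1. Skeletal muscle genes were higher in 3 of 6 and lower in 2, with Atp2a1 at 2.23 and Tnni2 at -1.12 (not called without WSB_1), and came to 95.8 to 128 summed CPM in AJ, 59.3 to 95.9 in 7 WSB libraries and 89.2 in WSB_1. Of 4 neutrophil genes 1, Cxcr2, was lower (-2.25). Of 6 T and NK cell genes 1, Cd4, which macrophages can also express, was higher (2.21) and 2, Gzma (-2.86) and Trac (-1.52), lower, all at means under 1 CPM. The part of cell composition in the differences of single genes was not tested.

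**Figure D5:**
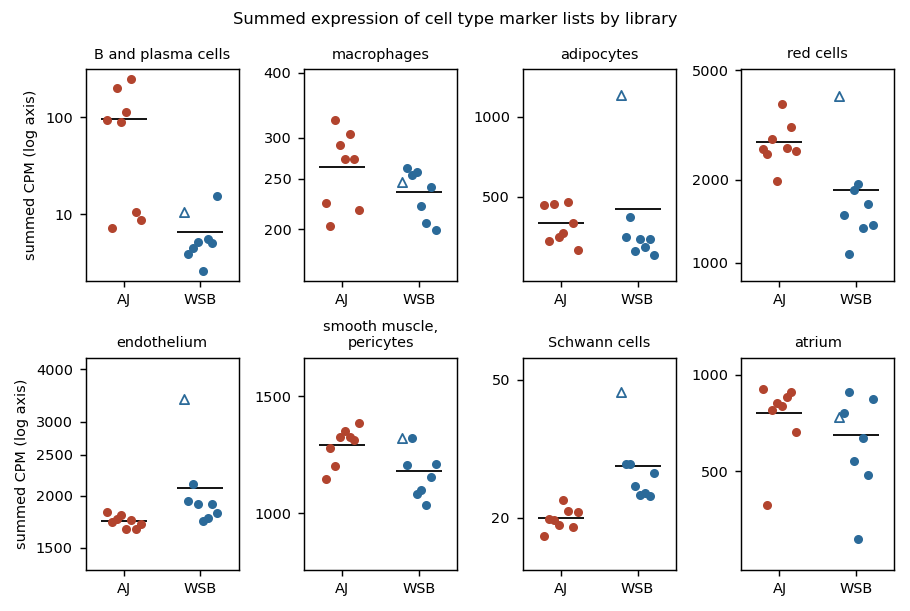
Summed CPM of 8 marker lists on a log axis, with 1 point per library (red AJ, blue WSB, open triangle WSB_1) and a line at each mean. AJ falls into 5 libraries with high and 3 with low B cell signal, and WSB_1 is the highest WSB library for adipocyte, red cell, endothelial and Schwann cell lists.

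Some of these counts can be shared with a neighbour, because the strand setting of the counting is not given in the sources used here. Exons of Capn3, Cd74, Cwc22, Glo1, Igtp, Irgm2, Nnt and Pfkfb2 overlap another annotated gene on the same strand. Exons of Baiap2l1, Folr2, Bst1, Sun3, Mybphl, Npr1, Trim72, Dysf, Lipe, Gapdh, Pfkp, Mt2, Hspa1a, H2-T22, Lox, Sfrp2, Nppa, Myh7, Hspe1, Nlrc5, Psmb9, Fn1, Elovl6, Irs1, Irs2, Dbp, Nr1d1 and Arntl overlap one on the opposite strand, so their values are uncertain to that extent.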

How the data were processed

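RNA-seq of heart from 63 mice of 8 inbred strains was used, with 8 AJ and 8 WSB libraries grouped by the strain in their labels. The deposited table holds estimated counts per gene that need not be whole (18.4% of values differ from a whole number by over 1e-06), and a second deposited table holds variance-stabilised log2 values made by the authors. GRCm38 and DESeq2 are named in the submitters' processing notes. The aligner, counter and strand setting were not given in the sources used here. GRCm38 is the genome of the B6 strain, and reads that differ from it may be counted less well where they were aligned to it.

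Expected counts were rounded, genes were kept by filterByExpr with a minimum count of 10 (16425 of 19220), and edgeR 4.0.16 (R 4.3.3) fitted robust quasi-likelihood models on all 63 libraries with 1 coefficient per strain, TMM scaling and Benjamini-Hochberg adjustment at 0.05. Log2 fold changes are AJ over WSB, ± SE. The scripts were tested on simulated data. The mitochondrial share was compared by an exact two-sided permutation test. Pairs of libraries with identical values numbered 0. Intervals of ratios cover counting error only.

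Gene lists (39 lists, 805 genes in the table, 788 tested) and the comparison itself were chosen with earlier results of these data known. Named genes were, first, the 12 largest log2 fold changes in each direction among protein-coding genes that passed with and without WSB_1, whose AJ libraries did not overlap the other 7 WSB libraries, with a mean of at least 5 CPM in the higher strain and no near-identical copy. Then came up to 2 members per direction of each pathway list with the largest change that passed in both fits, and always Dysf, Nppb, Nnt, Glo1, Cwc22, Ly6c1, Igkc, Adipoq and Cfd. All other genes named, among them Ankrd1, Nppa, Acta2, Hsph1, Nlrc5, B2m, Scd1, Nr1d1, Dbp, Irs1 and every cell type marker, were chosen after their values were seen. Near-identical copies are transcripts of GENCODE M21 that align (minimap2 2.31) at 95% identity or more over 50% or more of the shorter one. H2-Ea was not analysed here, and 9 genes are not reported here, by name or in the plots, though the list counts and sums include those that are list members.

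Alternatives were DESeq2 size factors, the DESeq2 1.42.0 Wald test, no filter, a floor of 1 on the mean log2 CPM, the 16 libraries alone, a replicate block, the mitochondrial genes left out, limma 3.58.1 on the log2 values, each library left out in turn, AJ_2, AJ_7 and AJ_8 left out together, counts summed with copies and, added after seeing the data, a factor for Xist above 100 CPM and sums with copies for the other list members.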

Additional observations from a re-analysis of the deposited data

Results flagged for a closer look

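In 61 of 244 groups of 8 libraries tested, the highest or lowest library lay apart from the others by more than Dixon's 95% critical value allows. The groups were the levels within a strain of the genes chosen by rule, of some chosen after their values were seen, and of the mitochondrial share. Other genes named in the report were not screened. Chance flags about 1 in 20 groups, and the groups share libraries, so the flags are not independent.

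WSB_1 accounted for 38 of them, 23 as the highest and 15 as the lowest WSB library. It was the highest WSB library for genes of antigen presentation, complement and fat cells, at CPM values of H2-T23 34.1, Cfd 37.0, H2-D1 26.3, B2m 159, Psmb9 5.91, H2-Ab1 6.44, Cd74 24.96 and C3 211. The same held for genes of vessels, endocardium and surface antigens, at Bst1 10.2, Npr1 57.1, Wnt9b 6.27, Procr 7.03, Ly6c1 0.0558, Acta2 174 and Plvap 40.0 CPM. Other genes in which it was highest were Fez1 13.5, Cfap69 11.0, Cit 34.2, Acot13 137, Gapdh 380.2, Gstt1 5.33, Gsta3 28.4 and Cwc22 1141 CPM. It was the lowest WSB library for genes of contraction and conduction, at Myom2 264, Actc1 4568, Trim72 49.7, Camk2d 58.0, Casq2 390.4, Scn4b 18.2 and Hcn4 0.390 CPM. Further genes with the lowest level in it were Ptprn2 4.32, Edn3 5.41, Mme 7.19, Pygb 80.9, Glo1 46.7, Hspa9 227, Nnt 118 and Nqo1 10.8 CPM.

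AJ_3 stood apart in 8 groups. It was highest for the interferon genes, at Gbp2b 48.1, Zbp1 4.39, Oas3 1.84 and Gbp3 29.8 CPM, and for Fasn 432 and Elovl6 26.2 CPM. It was lowest for Lama5 91.3 and Nnt 627 CPM. WSB_9 stood apart in 6 groups, with the highest WSB level for Scd1 116, Fasn 80.7, Elovl6 5.32, Dbp 9.44 and Lep 0.0944 CPM and the lowest for Ucp3 18.8 CPM. The remaining flags were 1 or 2 per library. They were Cpt1a 51.7 and Mmp2 101 CPM (highest in WSB_4), Acta1 441 and Capn3 4.89 CPM (highest in WSB_7), Lep 1.73 CPM (highest in AJ_6), Angptl4 17.5 CPM (highest in AJ_7), Hcn4 5.60 CPM (highest in AJ_8), Ucp1 0.0794 CPM (highest in WSB_3) and Stbd1 1.44 CPM (highest in WSB_8).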

How the results depend on the processing

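The alternatives were followed for the genes chosen by rule and for some chosen after their values were seen. Among these, no gene that passed the test by itself changed direction. Other list members were followed only without WSB_1 and, where they have copies, in sums with them. In those sums (chosen after seeing the data) Hba-a1 and Ly6a, which had passed by themselves, turned to 0.53 and 0.065. Gclm, another list member, did not pass by itself (-0.14, adjusted p = 0.494) and turned to 0.27 when summed with Ppia. Ppia is a different gene that met the same alignment rule, so this sum does not describe Gclm alone. Of values that did not pass, Myh7 went from 0.29 to near 0 when summed with Myh6, and the difference in mitochondrial share turned without WSB_1. The counts of genes higher and lower in AJ were 3320 and 3529, and with 1 library left out at a time they ran from 3110 (without AJ_3) to 3571 (without WSB_1) and from 3323 (without AJ_7) to 3556 (without WSB_9). They were 2489 and 2618 in the fit of the 16 libraries alone, 2452 and 2832 with a floor of 1 on the mean log2 CPM, and 3537 and 3206 with limma on the variance-stabilised values. Genes at least 2-fold higher and lower (900 and 814) numbered 836 to 981 and 684 to 832 with 1 library left out. They numbered 277 and 231 with that floor, where fewer genes are tested, and 150 and 116 with limma. Variance stabilisation is known to shrink the differences of low genes, and its part here was not tested. With the 16 libraries alone, 13 of 44 counts of genes and list members changed by over 1.5-fold, the most of any alternative. Among these, 5 ion channel genes (10 with all libraries) and 10 glucose genes (16) were called. The cause of these differences was not tested. Among the smaller lists, leaving out WSB_1 gave 8 PPAR and PGC-1 genes (3 with it), 15 TCA cycle genes (9) and 2 glucocorticoid-induced genes (4). Leaving out AJ_2, AJ_7 and AJ_8 gave 14 respiratory chain genes (23). Without AJ_2, 5 atrial genes were called (2 with it). Shifts of over 1.5-fold in the genes followed without 1 library, beside those in the report, were 13.79 for Ly6c1 without WSB_1, 10.91 for Ucp1 without WSB_3 and 7.32 for Lep without WSB_9. Without AJ_2, AJ_7 and AJ_8 the values were -3.93 for Hspa1b, -2.76 for Hspa1a, -2.45 for Cfi and 1.15 for Cfd. The difference in mitochondrial share ran from -0.660 without WSB_9 to 0.138 points without WSB_1. Whether replicate numbers pair the samples is not given in the labels used here. Deviations from the strain means of same-numbered libraries correlated at -0.10 to 0.159 over 7 shared numbers. The best match was the own number for AJ_1, AJ_4, WSB_1, WSB_3, WSB_4 and WSB_8, and another number for the remaining libraries with a shared number. A batch shared by number was not tested. With the replicate as a block in the fit, 3355 genes were higher and 3372 lower, and no call of a gene followed through the alternatives changed. The values of Fkbp1b and Cfi, under 1 CPM in every library, and of most lymphocyte genes rest on few counts. For genes at such levels that did not pass, a difference may not be detectable at this depth.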
